A study of Mus musculus with 10 samples.

Results

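Six2 sites that were called in only 1 of the 2 Six2 libraries, and that carried a β-catenin peak as well, were examined in nephron progenitors sorted from embryonic mouse kidneys. The regions were chosen by peak calls: peaks of all 4 lists that shared at least 1 bp were merged, and a region was kept when it held a peak of exactly 1 Six2 list and of at least 1 β-catenin list. This gave 407 of the 7666 merged regions, of which 138 had peaks in both β-catenin lists and 269 in 1. Since presence and absence in all 4 lists fixed the membership, the shares and positions below are descriptions without a test across libraries. The intervals given treat regions as independent and cover counting error only.

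The progenitors carried the transgene Six2GFPcre on a BAC (genotype label: transgenic Six2GFPcre-positive, mixed background) and were isolated by FACS from kidneys at E16.5. The 2 Six2 libraries came from fresh cells, and the 2 β-catenin libraries from aggregated cells kept for 24 h in medium with serum and 4 µM BIO, so effects of the antibody and of the culture cannot be told apart. No peak lists of the 4 input DNA and 2 rabbit IgG samples were used here, so that places giving signal in any such library were not separated from binding. The labels do not say whether the 2 libraries of an antibody came from separate sorts, and they were numbered in accession order.

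Six2 is a homeodomain transcription factor that holds nephron progenitors in the self-renewing state. β-catenin has no DNA-binding domain of its own and reaches chromatin mainly through TCF/LEF factors when canonical Wnt signalling is active. BIO inhibits the kinase GSK3, which otherwise marks β-catenin for degradation. In the developing kidney the Wnt signal both maintains progenitors and drives them to form epithelium, and enhancers bound by Six2 and by β-catenin complexes are a known meeting point of these programs.

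The lists held 5645 peaks for Six2 replicate 1, 1622 for Six2 replicate 2, 1873 for β-catenin replicate 1 and 1208 for β-catenin replicate 2. They give coordinates (mm9) and no height, p-value or read count, so the depth behind a peak is unknown. The order of the lines in a list was used as its only graded measure, and is called the list position, with position 1 for the first line. Whether the submitters sorted by strength is not given in the sources used here. Of the Six2 replicate 1 regions in the first 20% of that list, 60.7% were found in replicate 2 as well, and of those in the last 20% 5.23%. No genome or annotation of the mm9 build was used, so that sites are named by position alone, without genes or sequences.

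Almost all of the 407 regions took their Six2 peak from the longer list. Six2 replicate 1 supplied 380 of them and Six2 replicate 2 supplied 27. As shares of what each list alone contained, these numbers were close to each other. Of 4290 regions found only in Six2 replicate 1, 8.86% carried β-catenin (95% exact interval 8.02 to 9.75%), and of 272 found only in replicate 2, 9.93% did (6.64 to 14.1%). Over both lists the share was 8.92% of 4562 single-library regions. Among the 1349 Six2 regions of both libraries it was 26.6% (24.3 to 29.1%). With Six2 replicate 1 cut to the 1622 lines of replicate 2, a step added after the data were seen, the shares were 13.4% of 754 and 13.1% of 757 single-library regions.

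β-catenin replicate 1 supported most of these sites. It had a peak in 351 of the 407 (86.2%), and β-catenin replicate 2 in 194 (47.7%). Replicate 1 also held more of all 2521 β-catenin regions, with 1315 in replicate 1 alone, 651 in replicate 2 alone and 555 in both. Of the 359 Six2 regions of both libraries with β-catenin, 336 had a peak of replicate 1 and 149 of replicate 2. Built without β-catenin replicate 1 the set of single-library sites held 187, and without replicate 2 it held 349. Of the 269 sites in 1 β-catenin list, 213 were in replicate 1 and 56 in replicate 2. Regions of β-catenin replicate 1 alone lay on single-library Six2 sites in 16.2% of 1315 cases (14.2 to 18.3%), and in 15.2% of 725 cases within the first 1208 lines. Regions of β-catenin replicate 2 alone did so in 8.60% of 651 cases (6.56 to 11.0%). The lower share of replicate 2 was therefore present at equal list length too. It was not particular to these sites: on Six2 regions of both libraries the shares were 16.0% of the same 1315 and 3.53% of the same 651. Without a run of replicate 1 peaks on chromosome 2, described below, the share of replicate 1 on single-library sites was 18.2% of 1169. The Six2 list of origin made little difference to which β-catenin library gave the support, with 86.1% of the Six2 replicate 1 sites and 88.9% (70.8 to 97.6%) of the 27 Six2 replicate 2 sites found in β-catenin replicate 1.

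Of the 407 sites, 138 were found in both β-catenin lists, which is 33.9% (29.3 to 38.7%). Of all 2521 β-catenin regions 22.0% were in both lists, of those without any Six2 peak 16.6% (291 of 1755, 14.9 to 18.4%), and of those on Six2 regions of both libraries 35.1% (126 of 359, 30.2 to 40.3%). The value of the single-library sites lay within the interval of Six2 regions of both libraries, and its own interval did not meet that of β-catenin regions without Six2. A run of 146 β-catenin replicate 1 peaks within 250 kb of chromosome 2, from 146903063 to 147136350, held no peak of another list. Without it the share for regions without Six2 was 18.1% (16.2 to 20.1%). The split was much the same for both Six2 lists, 33.7% of 380 and 37.0% (19.4 to 57.6%) of 27.

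The difference from β-catenin regions without Six2 depended on which β-catenin list was taken as the start. Starting from β-catenin replicate 2, the sites with a single-library Six2 peak were found in replicate 1 more often in every 20% of the list. The shares were 94.1% (85.6 to 98.4%) against 77.1% (68.9 to 84.0%) in the first 20% of the list, 74.4% against 40.9% in the next 20%, and 44.0% (24.4 to 65.1%) against 15.6% (10.8 to 21.5%) in the last. Starting from β-catenin replicate 1, with the chromosome 2 run left out, the shares found in replicate 2 were 84.5% (75.8 to 91.1%) against 66.9% (59.5 to 73.7%) in the first 20%. In the next 20% they were 38.7% (26.6 to 51.9%) against 37.9% (31.6 to 44.7%), and in the last 11.3% (4.66 to 21.9%) against 9.57% (5.94 to 14.4%). Below the first 20% of replicate 1 the intervals therefore overlapped.

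**Figure D1:**
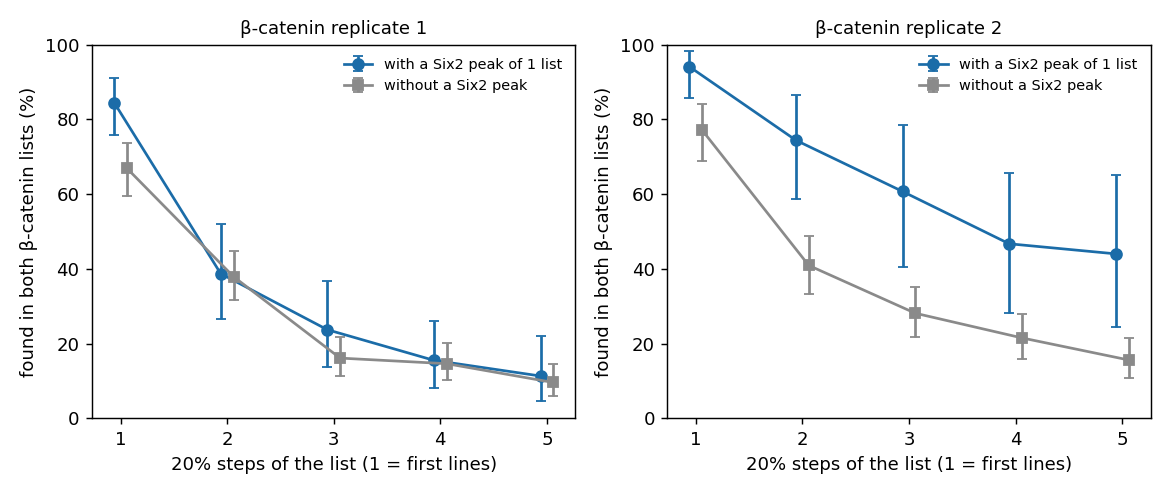
Share of β-catenin regions found in both β-catenin lists (%, vertical axis) by 20% steps of the list of β-catenin replicate 1 (left) and replicate 2 (right), for regions with a Six2 peak of 1 list (circles) and without a Six2 peak (squares, in the left panel without the chromosome 2 run); bars are 95% exact intervals. In the right panel the circles lie above the squares at every step, from 94.1% against 77.1% to 44.0% against 15.6%, and in the left panel they stand apart in the first step.

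Sites in both β-catenin lists came early in those lists. Their median position was 319 of 1873 in β-catenin replicate 1 (quartiles 120.2 and 683.8) and 270.5 of 1208 in replicate 2 (116.8 and 557.8). β-catenin regions of both lists without Six2 had medians of 455 and 383, and those on Six2 regions of both libraries 322.5 and 406.5. The 95% intervals of the medians were 206 to 372 for the single-library sites and 401 to 536 for regions without Six2 in replicate 1. In replicate 2 they were 230 to 332 and 334 to 451. Sites in 1 β-catenin list came far later, at a median of 1169 in replicate 1 and 792.5 in replicate 2, where regions of 1 list without Six2 had 1167.5 and 768.5. Among the first 100 lines of β-catenin replicate 1, 32 regions were single-library Six2 sites and 28 were Six2 sites of both libraries. Over all 1873 lines of that list these numbers were 351 and 336. Among the first 100 lines of replicate 2 they were 36 and 18, and over all 1208 lines 194 and 149.

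Sites in both β-catenin lists stood earlier in the full Six2 replicate 1 list than sites in 1. Sites in 1 β-catenin list had a median position of 3172.5 of 5645 in Six2 replicate 1 (quartiles 1760.5 and 4301.5, n = 252), and sites in both had 2083.5 (1075.8 and 3239.2, n = 128). The 95% intervals of these medians, 2767 to 3504 and 1738 to 2457, did not overlap, though the sites of both groups ran over nearly the whole list, from 265 to 5629 and from 140 to 5554. Single-library regions without β-catenin had a median of 3377.5 (n = 3910). Six2 regions of both libraries stood earlier, at 1347.5 without β-catenin, 612 with 1 β-catenin list and 373.5 with both. The order of the 2 groups of single-library sites was the opposite with the first 50% of each list, where the medians were 1213 (923 to 1496) for 1 β-catenin list and 1490 (1121 to 1762) for both, with overlapping intervals. The intervals also overlapped with a reciprocal overlap of 50%, at 2451 (2153 to 2862) and 1679 (1282 to 2163), and with the Six2 lists cut to equal length, at 997 (837 to 1186) and 886 (686 to 1069).

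**Figure D2:**
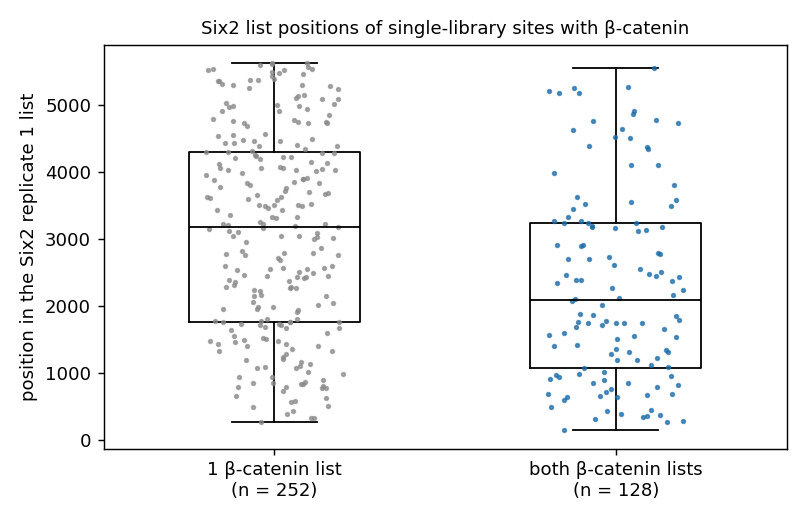
Position in the list of Six2 replicate 1 (vertical axis, 1 is the first line) of each single-library site with a β-catenin peak in 1 list (left, n = 252) or both lists (right, n = 128); boxes give quartiles and medians, whiskers the full range. The medians are 3172.5 and 2083.5, and the groups overlap over almost the whole list.

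The 27 sites of Six2 replicate 2 had a smaller gap between the groups. Their median position in that list of 1622 was 1271 with 1 β-catenin list (n = 17, 95% interval of the median 670 to 1436) and 1165 with both (n = 10, 717 to 1334). The 245 single-library regions of replicate 2 without β-catenin had a median of 1149. All 3 intervals of these medians overlapped (1081 to 1207 for the regions without β-catenin).

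The share of single-library Six2 regions that carried β-catenin fell along the Six2 list, and stayed below that of Six2 regions of both libraries in the leading parts of the list. In the first 20% of Six2 replicate 1, 66 of 442 single-library regions carried a β-catenin peak (14.9%, 11.7 to 18.6%), against 255 of 684 regions of both libraries (37.3%, 33.6 to 41.0%). In the next 20% the shares were 10.6% (8.50 to 12.9%) and 19% (14.9 to 23.7%). In the last 20% they were 6.07% (4.72 to 7.68%) and 10.2% (3.82 to 20.8%), with overlapping intervals and only 59 regions of both libraries. Peaks in both β-catenin lists were found on 7.69% (5.39 to 10.6%) of the single-library regions in the first 20% and 1.31% (0.717 to 2.19%) in the last. Each β-catenin library showed the fall by itself, from 13.6% to 4.58% for replicate 1 and from 9.05% to 2.80% for replicate 2. Replicate 2 alone gave 15.9% for Six2 regions of both libraries in the first 20%. With the first 50% of each list the share went from 11.4% (7.53 to 16.4%) in the first 20% to 5.44% (3.67 to 7.72%) in the last. Lists cut to equal length keep only the leading part of Six2 replicate 1. There it went from 13.5% of 52 regions (5.59 to 25.8%) to 12.7% (8.45 to 18.0%) with the Six2 lists cut, and from 8.82% of 34 regions (1.86 to 23.7%) to 8.43% (4.69 to 13.7%) with all lists cut, so that the intervals overlapped. Positions within a step were not matched, and regions of both libraries stand earlier in the list as a whole.

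**Figure D3:**
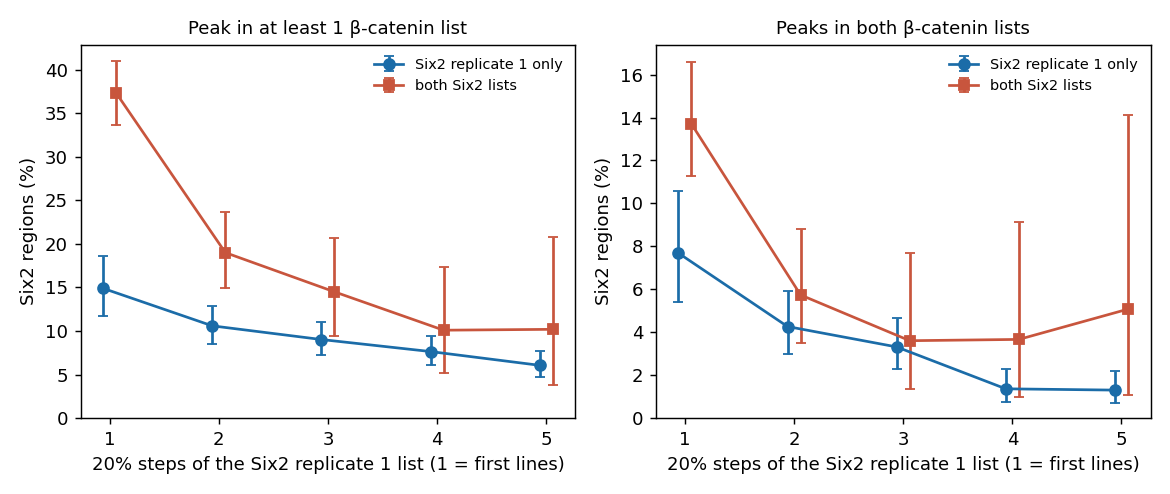
Share of Six2 regions with a peak in at least 1 β-catenin list (left) or in both (right), by 20% steps of the Six2 replicate 1 list, for regions of that list alone (circles) and of both Six2 lists (squares); bars are 95% exact intervals. On the left the circles fall from 14.9% to 6.07% and the squares from 37.3% to 10.2%.

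Within groups of sites with a like number of β-catenin lists, positions for Six2 and for β-catenin were nearly unrelated. Sites in both β-catenin lists and in 1 differed in median position for both proteins in the full lists, as given above. No rho was computed over all of them together. Over the 128 sites of Six2 replicate 1 in both β-catenin lists, Spearman's rho between the Six2 position and the β-catenin position was -0.09 for each β-catenin replicate. Over the 199 sites in Six2 replicate 1 and β-catenin replicate 1 alone it was 0.06. The positions in the 2 β-catenin lists had a rho of 0.58 over the same 128 sites. These values describe sites of shared libraries, which are not independent replicates, and a list position is a coarse measure.

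**Figure D4:**
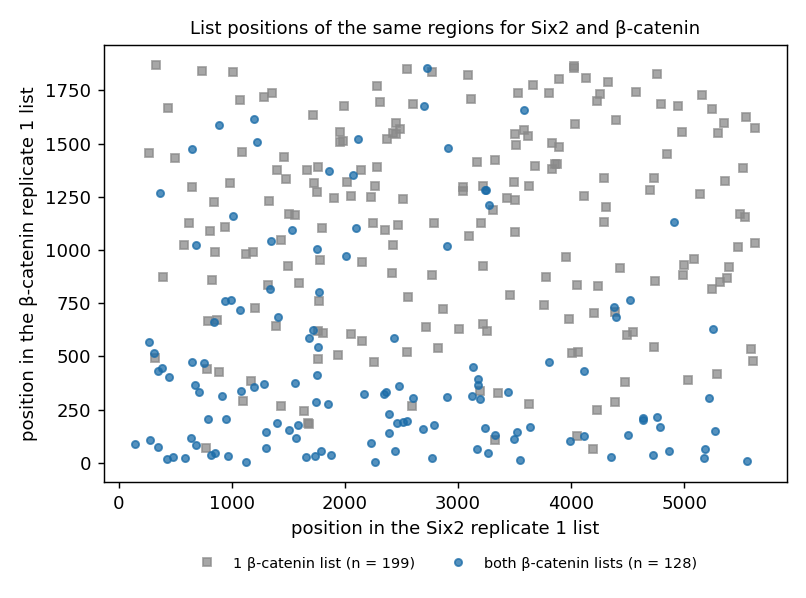
Position in the β-catenin replicate 1 list (vertical axis) against position in the Six2 replicate 1 list (horizontal axis), 1 point per site, for sites in both β-catenin lists (circles, n = 128) and in β-catenin replicate 1 alone (squares, n = 199). Circles gather at early β-catenin positions over the whole range of Six2 positions (rho = -0.09).

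Some of the earliest β-catenin sites carried Six2 peaks from the middle or the last part of the Six2 list. The site at chromosome 17, 86147133 to 86147586, was at position 2 in β-catenin replicate 1 and 7 in replicate 2, with a Six2 replicate 1 peak of 447 bp at position 2261. The site at chromosome 8, 27943898 to 27944102, stood at 10 in both β-catenin lists and at 5554 for Six2, and the one at chromosome 14, 105514703 to 105514913, at 24 and 12 for β-catenin and 5177 for Six2. The last 2 were named after their values were seen. The named sites that follow were taken by the mean of list positions divided by list length.

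The site with the lowest such mean lay at chromosome 11, 96180626 to 96180790. It was at position 481 in Six2 replicate 1, 26 in β-catenin replicate 1 and 9 in β-catenin replicate 2, and the midpoints of the Six2 and β-catenin peaks were 1 and 10.5 bp apart. The nearest peak of Six2 replicate 2, at position 514 of its list, lay 12194 bp away. Another 2 of the leading sites lay on chromosome 10. The one at 38705963 to 38706133 had positions 349 for Six2 and 75 and 16 for β-catenin. The one at 39150032 to 39150447 had positions 682, 83 and 20, and a Six2 peak of 416 bp that enclosed both β-catenin peaks of 111 and 125 bp. For both, the closest Six2 replicate 2 peak was over a megabase away (1465368 and 1021054 bp). The site at chromosome 1, 77309774 to 77309911, had positions 424, 18 and 39.

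The other leading sites in both β-catenin lists had Six2 positions between 588 and 1121. They lay at chromosome 15, 87523608 to 87523809 (Six2 1121, β-catenin 6 and 40), chromosome 17, 30390101 to 30390255 (Six2 814, β-catenin 38 and 34), chromosome 9, 109709357 to 109709722 (588, 21 and 98), and chromosome 7, 103680988 to 103681220 (961, 34 and 24). Further ones lay at chromosome 1, 21860957 to 21861176 (847, 47 and 66), and chromosome 14, 55782924 to 55783462 (786, 206 and 58). At the chromosome 9 site the Six2 peak was only 55 bp wide, and the β-catenin replicate 1 peak of 300 bp overlapped it by 11 bp.

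Sites in 1 β-catenin list were led by chromosome 15, 102854688 to 102854889, at position 766 in Six2 replicate 1 and 70 in β-catenin replicate 1. The next came much later in the β-catenin list, all in replicate 1. These were chromosome 12, 68426948 to 68427034 (Six2 320, β-catenin 491), chromosome 14, 61482333 to 61482555 (1096 and 292), chromosome 13, 32269913 to 32270107 (783 and 440), and chromosome 5, 132209320 to 132209524 (888 and 429). At the chromosome 12 site the peaks were nearly the same interval, 87 and 80 bp wide with midpoints 0.5 bp apart.

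The sites that only Six2 replicate 2 supplied were led by chromosome 13, 90862361 to 90863015, at position 476 of 1622 in that list and at 69 and 25 for β-catenin. It was followed by chromosome 5, 142185480 to 142185651 (717 for Six2, 129 and 396 for β-catenin), and chromosome 13, 52712606 to 52712828 (1334, 84 and 11). The site at chromosome 8, 50700425 to 50700747, had a β-catenin peak of replicate 1 alone (670 and 423), and chromosome 11, 41458716 to 41458930, had peaks at 1126, 204 and 367.

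Few of the sites were near misses of the other Six2 library. Gaps were measured from the merged region, which for these sites includes the β-catenin peaks (median width 215 bp). For regions without β-catenin it holds Six2 peaks alone (144 bp), so the 2 measures are not fully alike. Of the 380 sites of Six2 replicate 1, 5 (1.32%, 0.429 to 3.04%) had a replicate 2 peak within 500 bp and 24 (6.32%, 4.09 to 9.25%) within 10000 bp. Among the 3910 regions without β-catenin these shares were 0.614% and 4.91%, with overlapping intervals. At 100000 bp the shares were 31.6% (26.9 to 36.5%) and 23.5% (22.1 to 24.8%). By 20% steps of the Six2 list the sites with β-catenin had the higher share in each, for example 31.8% against 26.6% in the first and 24.6% against 22.6% in the last. The intervals overlapped at each step but the third, where the shares were 33.3% (23.6 to 44.3%) and 20.4% (17.8 to 23.3%). Sites in both β-catenin lists and in 1 differed little (34.4% and 30.2%). The 27 sites of Six2 replicate 2 ran the other way, with a replicate 1 peak within 100000 bp in 44.4% (25.5 to 64.7%), against 55.1% (48.6 to 61.4%) of those without β-catenin, again with overlapping intervals.

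The closest near miss was at chromosome 8, 129028712 to 129028869, a Six2 replicate 2 peak at position 639 whose neighbour in replicate 1, at position 1071, lay 2 bp away. Its β-catenin peak stood at position 1083 of replicate 1. At chromosome 12, 12949283 to 12949422, the gap was 58 bp, and at chromosome 11, 109054575 to 109054803, it was 289 bp. At chromosome 13, 98080730 to 98081001, the Six2 replicate 1 peak was at position 140, the earliest in that list of all these sites. A replicate 2 peak of position 354 lay 380 bp beyond the end of the merged site, which is the end of a β-catenin peak. The chromosome 17 site at 86147133 to 86147586 lay 397 bp from the Six2 replicate 2 peak of position 9. With peaks merged across gaps of up to 1000 bp these 5 sites would count as Six2 sites of both libraries.

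Within the sites the midpoints of the Six2 and β-catenin peaks lay close together. The rule limits this distance by itself, since it asks for overlap of peaks with median widths of 131 to 207 bp in their lists. The median distance between midpoints was 42.5 bp (95% interval 35 to 47 bp) to the 351 peaks of β-catenin replicate 1 and 38.5 bp (29.5 to 48.5 bp) to the 194 of replicate 2. At Six2 regions of both libraries, likewise joined to β-catenin by overlap, the medians from Six2 replicate 1 were 41.2 and 45 bp. Of the 545 pairs of a Six2 and a β-catenin peak, 314 had midpoints within 50 bp, and in 231 the narrower peak lay wholly inside the wider. In 9 pairs the peaks did not overlap each other and were joined through another peak, although each of the 407 sites held at least 1 directly overlapping pair. Sites in both β-catenin lists and in 1 had like distances, 41 and 43.5 bp for replicate 1. The sequenced fragments were 250 to 500 bp long per the labels, longer than most of these distances.

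**Figure D5:**
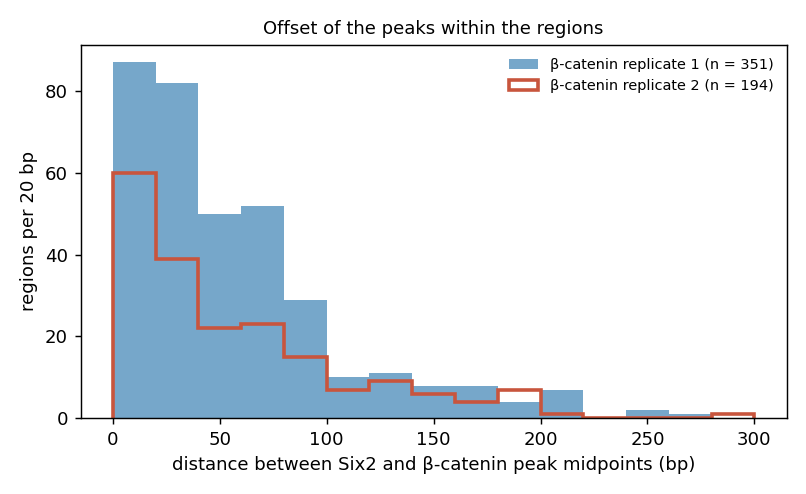
Distance in bp between the midpoints of the Six2 peak and the β-catenin peak (horizontal axis, bins of 20 bp) against the number of sites, for β-catenin replicate 1 (filled, n = 351) and replicate 2 (outline, n = 194). Most sites fall below 100 bp, with medians of 42.5 and 38.5 bp.

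In Six2 replicate 1 the peaks of these sites had a larger median width than those of single-library regions without β-catenin. A wider peak meets the overlap rule more readily, so the rule itself enters this comparison, and its part was not tested. In Six2 replicate 1 the median width was 163.5 bp with 1 β-catenin list (95% interval 153 to 174 bp), 164.5 bp with both (143 to 181 bp) and 141 bp with none (140 to 144 bp). Six2 regions of both libraries had medians in the same order of groups of 168 (157 to 176), 163.5 (150 to 174) and 152 bp (147 to 159). In Six2 replicate 2 the single-library medians were 215 (187 to 295), 223.5 (129 to 317) and 208 bp (195 to 221), with overlapping intervals. Width also moved with the share of overlap. The share of single-library regions that carried β-catenin was 6.93% (5.49 to 8.61%) in the narrowest 25% of peaks, up to 112 bp, and 13.1% (11.1 to 15.3%) in the widest, from 185 bp. Wide peaks did not stand earlier: the median position was 3163 in the narrowest 25% and 3725.5 in the widest. The part of width in the shares given by list position was not tested. With midpoints within 500 bp in place of overlap there were 433 sites in place of 407.

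At the edge of the rule, the smallest overlaps were 2 bp, at chromosome 13, 69568739 to 69568883, and 4 bp, at chromosome 7, 137262367 to 137262598, and chromosome 11, 75518110 to 75518411. Just outside it, single-library Six2 peaks at chromosome 3, 96067195 to 96067267, chromosome 16, 57366279 to 57366462, and chromosome 9, 15474662 to 15474769, lay 0, 1 and 2 bp from a β-catenin peak. Of the 4155 single-library regions without β-catenin, 25 had a β-catenin peak within 100 bp and 61 (1.47%) within 1000 bp.

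The sites were spread over the genome. Every autosome held between 14 and 33 of them, and chromosome X held 1, of 42 single-library Six2 regions there (2.38%, 0.0603 to 12.6%). The share of single-library regions with β-catenin ran from 4.88% (2.69 to 8.05%) on chromosome 11 to 13.0% (7.74 to 20%) on chromosome 19. Chromosome 8 had the most sites in both β-catenin lists, 15 of its 29, against 138 of 407 in all. It was named for this count, and no test was made. The median gap from a site to the next was 1320540.5 bp, and 53 sites (13.0%) had another within 100000 bp. These distances were not computed for other regions, so they show neither clustering nor its absence.

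Of the neighbours, 9 pairs lay within 10000 bp. The closest was at chromosome 15, 57625013 to 57625136 and 57625382 to 57625559, with 245 bp between them and Six2 positions of 808 and 445. In 2 of the pairs the neighbours came from different Six2 lists. At chromosome 15 a replicate 2 peak of position 1094 (region 102844878 to 102845183, in both β-catenin lists) lay 9504 bp from the replicate 1 site at 102854688 to 102854889 described above. At chromosome 2 a replicate 2 site at 179064952 to 179065174 lay 2775 bp from a replicate 1 site at 179067950 to 179068248, which was in both β-catenin lists. These pairs were named after their values were seen.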

How the data were processed

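ChIP-seq peak lists of 4 libraries were used: Six2 (2 libraries, fresh cells) and β-catenin (2 libraries, BIO-treated cells). Each deposited file is of another kind than counts or signal, with 3 columns for chromosome, start and end, and 1 library per list. CASAVA 1.6 and the mm9 build come from the submitters' processing notes. How peaks were called, at what threshold and against which control is not given in the sources used here. Per the labels' protocols, fragments were amplified with 18 PCR cycles.

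Intervals were read as BED and are printed 1-based. Peaks of the 4 lists sharing at least 1 bp were merged with Python 3.11.15 and numpy 2.4.6. Where a region held several peaks of a list, the first-listed was used. Shares carry 95% exact (Clopper-Pearson) intervals from scipy 1.17.1, and medians carry 95% order-statistic intervals. The merging was tested on simulated lists. No test across libraries was made. The members and the sites named were chosen with earlier results of these data known. Sites named were the 10 members in both β-catenin lists, the 5 in 1 list and the 5 of Six2 replicate 2 with the lowest mean of position divided by list length. The 5 nearest the other Six2 list and 3 on each side of the overlap limit were named as well. The gene and promoter tables at hand are of GRCm38, and were not used.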

Additional observations from a re-analysis of the deposited data

How the results depend on the processing

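The number of sites, 407, was 319 to 442 under other overlap rules, and 180 with the first 50% of each list, 200 with the Six2 lists cut to equal length and 147 with all lists cut to equal length. Both cuts, and the lists without the chromosome 2 run, were chosen after seeing the data. Fewer lines enter such lists, and otherwise the cause of the changes was not tested. Leaving out 1 β-catenin library gave 187 to 349 sites, and shares with β-catenin from 9.05 to 13.1% (single-library) and 15.8 to 34.9% (both libraries) in the first 20% of the Six2 list, and from 2.71 to 4.58% and 5.08 to 10.2% in the last. Leaving out a Six2 library was not possible, since the rule needs both.

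The difference in median Six2 position, 1 β-catenin list minus both, was 1089 and turned to -277 (outer bounds of the medians' intervals -839 to 375) with the first 50% of each list (1213 and 1490). It was 111 with equal Six2 lists (997 and 886) and 101.5 with all lists equal (797.5 and 696). With a reciprocal overlap of 50% it was 772 (-10 to 1580), from medians of 2451 and 1679.

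A reciprocal overlap of 50% gave 24.1% of sites in both β-catenin lists (9.33% of regions without Six2), 40.2% with a Six2 replicate 2 peak within 100 kb, shares in the first 20% of 10.3% (single-library) and 31% (both libraries), a share in the last 20% of 3.20%, a midpoint distance of 27.2 bp and a width of 205 bp. The first 50% of each list gave 23.0% of regions without Six2 in both β-catenin lists (36.7% of the sites), shares in the first 20% of 11.4% and 33.6%, 19.2% within 100 kb, median β-catenin positions of 416 and 199, and a width of 206 bp. Equal Six2 lists gave 39.5% of sites in both β-catenin lists, a share in the first 20% of 49.3% for both libraries, a share in the last 20% of 12.7% and a width of 236 bp. All lists cut to equal length gave 21.4% of regions without Six2 in both β-catenin lists (38.1% of the sites), shares in the first 20% of 8.82% and 44.7%, a share in the last 20% of 8.43%, 26.9% within 100 kb and a β-catenin replicate 1 position of 532.5. Merging within 1000 bp gave a midpoint distance of 47.2 bp and a width of 232 bp. Of 153 values under 11 alternatives, 107 moved by less than their interval, or by less than 1.5 times for the number of sites. The share in both β-catenin lists was higher for these sites than for regions without Six2 in all alternatives that kept both β-catenin lists. No paired analysis was possible because replicate numbers were given in accession order and no result comes from a test across libraries.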
